A study of Mus musculus with 8 samples.

Results

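The transcripts of 9 enzymes of the tricarboxylic acid (TCA) cycle were followed in primary mouse calvarial osteoblasts treated with parathyroid hormone (PTH) or vehicle. The 9 genes were chosen by name: Cs, Idh3a, Idh3b, Idh3g, Idh2, Ogdh, Suclg1, Fh1 and Mdh2. Each symbol was found on 1 of the 47706 rows of the gene count table, in a locus that holds no other symbol, and each of the 9 was among the 16736 genes with enough counts to be tested. Both groups held 4 samples, and all 8 were cultures of primary calvarial osteoblasts that had been differentiated for 7 days before PTH or vehicle was given for 24 hours. The cells came from the skullcaps of newborn mice by collagenase digestion, and the cultures were kept in low serum before treatment. The methods describe osteogenic medium, whereas the sample labels name adipogenic differentiation. The strain and genotype of these cultures are not given in the sources used here. The labels do not say whether the 4 cultures of a group came from separate animals, so the p-values measure only the spread between these samples, which may be technical.

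The TCA cycle runs in the mitochondrial matrix and oxidizes the acetyl groups made from glucose, fatty acids and some amino acids to carbon dioxide. The electrons it removes are carried by NADH and FADH2 to the respiratory chain, and its intermediates feed the synthesis of fatty acids, heme, glutamate and aspartate. In osteoblasts the cycle receives fuel from glucose, fatty acids and glutamine while the cells secrete collagen and mineralize it. PTH acts on osteoblasts through a receptor that couples chiefly to cyclic AMP and protein kinase A. The comparison of PTH with vehicle addresses how the hormone alters the metabolic gene expression of these cells.

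Whole-number counts per gene were analysed. The total per sample lay between 33605610 and 56090654 with PTH and between 41618108 and 46757836 with vehicle, and levels are given as CPM, the count of a gene scaled to the normalized size of its library. The labels were checked with Tnfsf11, which encodes RANKL and is a known target of PTH in osteoblasts, and its level was 128 ± 20.0 CPM (SD, n = 4) with PTH and 1.42 ± 0.365 CPM with vehicle. The 8 osteoblast markers examined were each tested and together gave 44023 to 60853 CPM with PTH and 43884 to 50720 CPM with vehicle, with 3 lower and 0 higher. The 7 adipocyte markers, of which 6 were tested, 1 was lower and 0 were higher, together gave 31.3 to 47.9 CPM with PTH and 37.2 to 49.5 CPM with vehicle. The 10 macrophage markers, of which 1 was higher, summed to 1601 to 2053 CPM with PTH and to 1027 to 1674 CPM with vehicle. The 4 chondrocyte markers, of which 2 were higher, summed to 369 to 485 CPM with PTH and to 316 to 331 CPM with vehicle. The 4 endothelial markers, with 1 higher and 1 lower, summed to 5.66 to 6.97 CPM with PTH and to 6.15 to 6.97 CPM with vehicle, and the 5 skeletal muscle markers, of which 2 were tested with 1 higher and 1 lower, to 4.15 to 7.43 CPM and to 5.50 to 7.45 CPM. By the same test 23.3% of all tested genes were higher and 22.5% lower, and no marker list was tested as a set. No marker of these 6 lists stayed at 3 counts or fewer in every sample, and the part of other cell types in the results was not tested. In cultures sequenced in bulk, fewer cells of a type and less RNA per cell cannot be told apart.

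Over the 9 enzymes, 1 transcript rose with PTH (Mdh2), 2 fell (Cs and Idh2) and 6 did not pass the test, and the largest of these changes was 0.23 on the log2 scale. The test was edgeR's quasi-likelihood F-test with Benjamini-Hochberg adjustment over 16736 genes and a threshold of 0.05. By the same test 23.3% of all tested genes rose and 22.5% fell, so the share of called members was not above that of genes in general. The groups did not overlap for 3 of the 9 members, whereas they did not overlap for 43.0% of all tested genes. Among the 3855 genes whose mean CPM lay within the range of the members, 35.5% rose, 22.8% fell and 55.4% did not overlap. The median log2 fold change of the members was 0.00476, beside a median of -0.000814 over all tested genes. The median size of their change, without its sign, was 0.106 on the log2 scale, compared with 0.346 for all tested genes and with 0.253 for the 3855 genes whose mean CPM lay within the range of the members. Against a fold change of 1.2, in place of no change, 0 members rose and 0 fell in edgeR. Of all tested genes, 63.5% had a larger change than the member that changed most. Summed over the 9 members, the level was 827 ± 47.8 CPM (774 to 885, n = 4) with PTH and 822 ± 16.7 CPM (799 to 837) with vehicle.

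**Figure D1:**
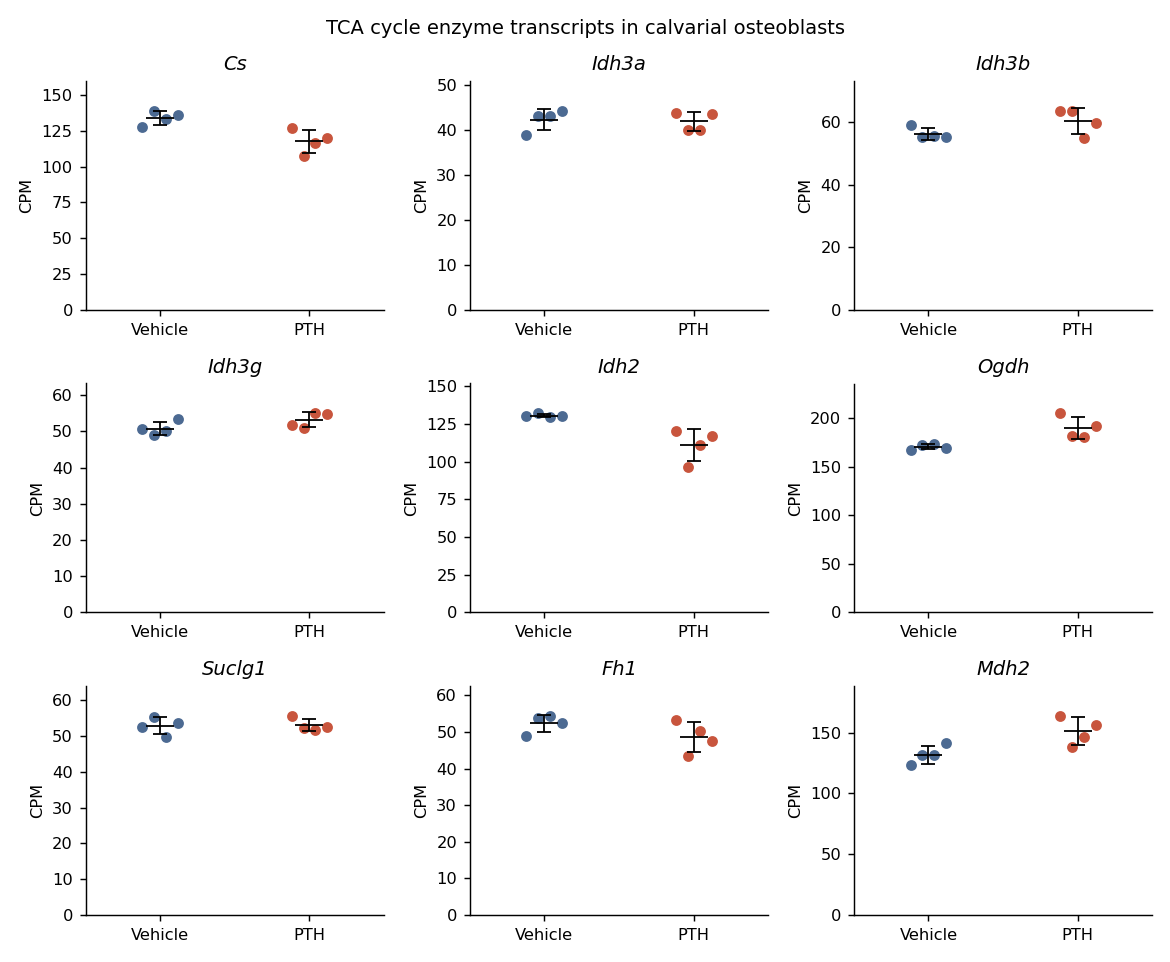
CPM (vertical axes, starting at 0) of each of the 9 TCA cycle enzymes with vehicle (blue) and PTH (red). Points are the 4 samples of each group in the order of their numbers, and bars are the mean and SD; the groups are separate for Cs, Idh2 and Ogdh and overlap for the other 6.

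Cs encodes citrate synthase, which joins acetyl-CoA to oxaloacetate and so opens the cycle. Its level was 126.9, 107.4, 116.3 and 119.8 CPM in PTH samples 1 to 4 and 128.0, 138.9, 133.2 and 136.2 CPM in vehicle samples 1 to 4. Every PTH sample lay below every vehicle sample, although PTH sample 1 and vehicle sample 1 were nearly equal. Cs fell by 0.19 on the log2 scale (SE 0.0658, 95% interval -0.33 to -0.05, adjusted p = 0.0337 by edgeR), a change in level of -12.3% (95% interval -20.6 to -3.07%). The call was kept without PTH sample 1 (adjusted p = 0.0113) or vehicle sample 1 (0.0465) and was lost without PTH sample 2 (0.0940), PTH sample 3 (0.0851), PTH sample 4 (0.0568), vehicle sample 2 (0.106), vehicle sample 3 (0.0688) or vehicle sample 4 (0.0900). With DESeq2's size factors in edgeR the adjusted p was 0.0588, and with a correction for transcript length the log2 fold change of Cs was -0.11 (adjusted p = 0.217).

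Isocitrate is oxidized to 2-oxoglutarate in mitochondria by a pair of distinct enzymes. The NAD-dependent enzyme IDH3 is an assembly of subunits encoded by Idh3a (the catalytic alpha subunit), Idh3b and Idh3g (the beta subunit and the regulatory gamma subunit), whereas the NADP-dependent enzyme is encoded by Idh2 alone. Idh2 was at 120.8, 96.3, 110.9 and 117.0 CPM in PTH samples 1 to 4 and at 130.6, 132.2, 129.7 and 130.4 CPM in vehicle samples 1 to 4. All 4 PTH samples lay below all 4 vehicle samples, and the vehicle samples were nearly identical, with a coefficient of variation of 0.795% against 9.70% with PTH. Idh2 fell by 0.23 on the log2 scale (SE 0.0731, 95% interval -0.39 to -0.07, adjusted p = 0.0209 by edgeR), a change in level of -14.9% (95% interval -23.8 to -4.91%). The call was kept without PTH sample 1, 2 or 4 or vehicle sample 3 and was lost without PTH sample 3 (adjusted p = 0.0583), vehicle sample 1 (0.0540), vehicle sample 2 (0.0626) or vehicle sample 4 (0.0549). It was also lost with a correction for transcript length (log2 fold change -0.21, adjusted p = 0.0512).

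None of the 3 IDH3 subunits passed the test. Idh3a was at 43.9, 40.1, 40.1 and 43.6 CPM with PTH and at 38.9, 43.0, 43.0 and 44.3 CPM with vehicle, and the samples of both groups were intermingled. Its log2 fold change was -0.01 (SE 0.0682, 95% interval -0.16 to 0.14, adjusted p = 0.893 by edgeR). Idh3b was at 63.5, 63.5, 54.9 and 59.6 CPM with PTH and at 59.2, 55.2, 55.4 and 55.3 CPM with vehicle, so that PTH sample 3 was the lowest of all 8. Its log2 fold change was 0.10 (95% interval -0.04 to 0.25, adjusted p = 0.233). Idh3g was at 51.8, 50.9, 54.9 and 54.9 CPM with PTH and at 50.7, 49.0, 50.0 and 53.3 CPM with vehicle. PTH samples 3 and 4 were the highest of the 8 and the others overlapped, with a log2 fold change of 0.07 (95% interval -0.07 to 0.20, adjusted p = 0.401). As a change in level, the 95% intervals were -10.6 to 9.86% for Idh3a, -2.91 to 18.6% for Idh3b and -4.48 to 14.8% for Idh3g. The span of Idh3b shares 5 bases with that of Nop56, a gene on the opposite strand with a mean of 2143 counts per sample. Without a stated strand setting, reads from the shared bases cannot be assigned to either.

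2-Oxoglutarate is converted to succinyl-CoA by the oxoglutarate dehydrogenase complex, whose E1 subunit is encoded by Ogdh. Its level was 204.9, 181.8, 180.3 and 191.7 CPM in PTH samples 1 to 4 and 167.1, 172.8, 173.3 and 169.6 CPM in vehicle samples 1 to 4. All 4 PTH samples lay above all 4 vehicle samples, with a log2 fold change of 0.15 (SE 0.0623, 95% interval 0.02 to 0.29), yet the adjusted p of 0.0646 by edgeR missed the threshold. Without PTH sample 2 the adjusted p was 0.0380, with all counts halved it was 0.0449, and with a correction for transcript length it was 0.00755 (log2 fold change 0.23). Ogdhl, a paralog of Ogdh best known from the brain, had a log2 fold change of -0.18 (adjusted p = 0.106), at 23.6 ± 1.44 CPM with PTH and 26.9 ± 2.65 CPM with vehicle.

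Suclg1 encodes the alpha subunit of succinyl-CoA synthetase, which makes succinate and a nucleoside triphosphate and is shared by the ATP-forming and GTP-forming enzymes. It was at 55.7, 52.4, 51.7 and 52.5 CPM with PTH and at 52.5, 55.4, 49.9 and 53.7 CPM with vehicle, and the groups covered nearly the same range. The log2 fold change was 0.00 (95% interval -0.13 to 0.14, adjusted p = 0.957), the smallest change of the 9, and the 95% interval of the change in level ran from -8.54% to 10.1%. Fh1 encodes fumarase, which hydrates fumarate to malate. It was at 53.3, 43.6, 50.2 and 47.5 CPM with PTH and at 49.0, 53.7, 54.4 and 52.4 CPM with vehicle. PTH samples 2 and 4 were the lowest of the 8 and the other samples overlapped, with a log2 fold change of -0.11 (95% interval -0.27 to 0.06, adjusted p = 0.269). The span of Fh1, introns included, shares 5255 bases with that of Kmo on the opposite strand. Kmo had a mean of 5.25 counts per sample.

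Mdh2 encodes mitochondrial malate dehydrogenase, which regenerates oxaloacetate and also works in the malate-aspartate shuttle. It was at 164.0, 138.0, 146.6 and 156.8 CPM in PTH samples 1 to 4 and at 123.3, 131.9, 131.4 and 141.3 CPM in vehicle samples 1 to 4. The PTH samples were higher apart from PTH sample 2, which lay below vehicle sample 4. Mdh2 rose by 0.20 on the log2 scale (SE 0.0715, 95% interval 0.04 to 0.35, adjusted p = 0.0395 by edgeR), or by 14.7% (95% interval 2.94 to 27.8%). DESeq2 gave a log2 fold change of 0.19 with an adjusted p of 0.0589, the correction for transcript length gave 0.17 with an adjusted p of 0.125, and the adjusted p was 0.177 without a filter on low counts and 0.0568 without the 10 most abundant genes. The call was kept without PTH sample 2 (0.0125) and without vehicle sample 4 (0.0448), and it was lost when PTH sample 1 (0.0899), 3 (0.0719) or 4 (0.103) or vehicle sample 1 (0.15), 2 (0.122) or 3 (0.095) was left out.

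Within the PTH group, the levels of Cs, Idh2 and Mdh2 each followed the order of the library totals, with sample 1 highest, then samples 4 and 3, and sample 2 lowest. The sum of the 9 members had this order too, at 885, 843, 806 and 774 CPM. Over all tested genes 12.3% rose in CPM in this order of depth, and among the 3855 genes in the members' range of CPM 23.9% did. When all libraries were thinned to the smallest total, the adjusted p by edgeR was 0.0289 for Cs, 0.0215 for Idh2 and 0.0332 for Mdh2. Random thinning leaves the expected CPM of each sample unchanged, so it cannot show whether these levels depend on depth. The part of depth in these differences was not tested.

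**Figure D2:**
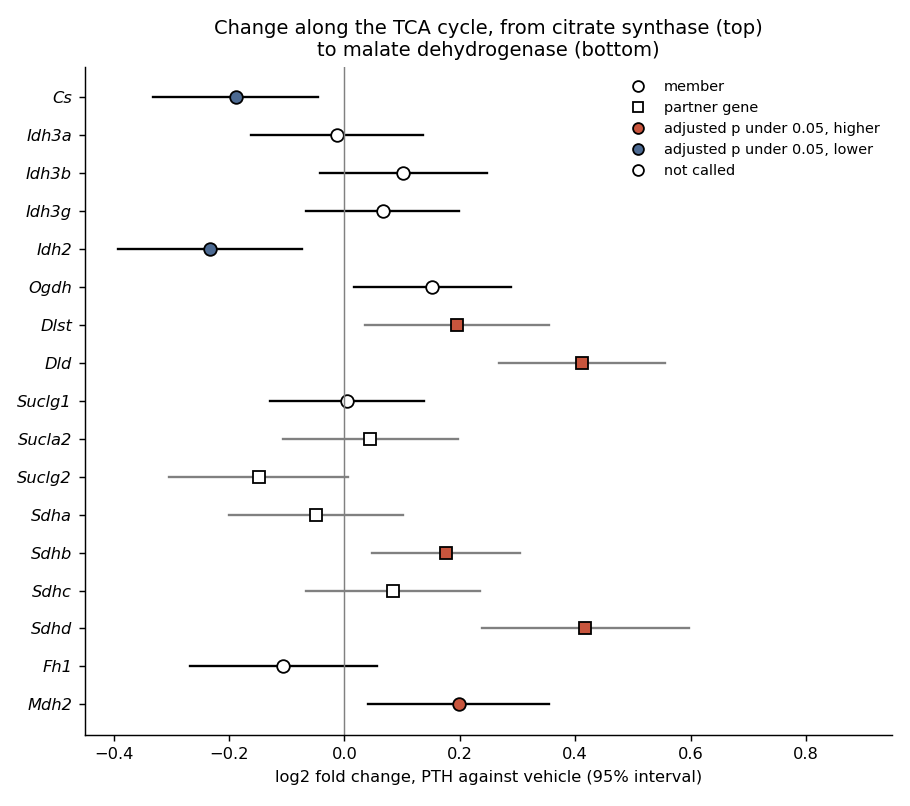
Log2 fold change of PTH against vehicle (horizontal axis) with its 95% interval for the 9 members (circles) and 8 of the 9 partner genes (squares), ordered along the cycle from citrate synthase at the top to malate dehydrogenase at the bottom. Filled symbols had an adjusted p under 0.05: Cs and Idh2 lie to the left of 0, while Mdh2 and 4 partner genes lie to the right.

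The members differed from one another in direction, and ratios between them within a sample do not depend on how the libraries were scaled. There were 1.61 counts of Ogdh for each count of Cs with PTH and 1.27 with vehicle, where the values for the single samples were 1.615, 1.692, 1.550 and 1.600 with PTH and 1.305, 1.244, 1.301 and 1.246 with vehicle. The log2 ratio differed by 0.34 and the groups did not overlap. There were 1.29 counts of Mdh2 for each count of Cs with PTH (1.26 to 1.31) and 0.984 with vehicle (0.95 to 1.04), a log2 difference of 0.39. This pair of enzymes stands on either side of oxaloacetate, Mdh2 making it and Cs using it. Against Mdh2, the counts of Fh1 were 0.321 with PTH (0.303 to 0.343) and 0.397 with vehicle (0.371 to 0.414), a log2 difference of -0.31. The ratio of Idh2 to Idh3a was 2.65 with PTH (2.40 to 2.77) and 3.09 with vehicle (2.94 to 3.36), a log2 difference of -0.22. For each of these 4 ratios the exact two-sided permutation test gave p = 0.0286, the smallest that 70 assignments of 4 and 4 samples can give. After adjustment over 8 ratios it was 0.0571, so none passed the threshold. With only 4 of 8 ratios at the smallest p, none can pass it, whatever the size of its difference. Leaving out any one sample kept the difference between 0.32 and 0.36 for Ogdh to Cs, between 0.37 and 0.41 for Mdh2 to Cs, between -0.34 and -0.28 for Fh1 to Mdh2 and between -0.25 and -0.18 for Idh2 to Idh3a.

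Among the subunits of IDH3 the ratios overlapped between the groups. Idh3b to Idh3a was 1.44 with PTH and 1.33 with vehicle, a log2 difference of 0.11 (exact permutation test, p = 0.200, adjusted p = 0.267). By the same exact permutation test, Idh3g to Idh3a differed by 0.08 (p = 0.286, adjusted p = 0.327) and Idh3g to Idh3b by -0.03 (p = 0.714, adjusted p = 0.714). Suclg1 to Ogdh, consecutive steps of the cycle, was 0.280 with PTH and 0.310 with vehicle, a log2 difference of -0.15 with overlapping groups (exact permutation test, p = 0.0571, adjusted p = 0.0914).

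**Figure D3:**
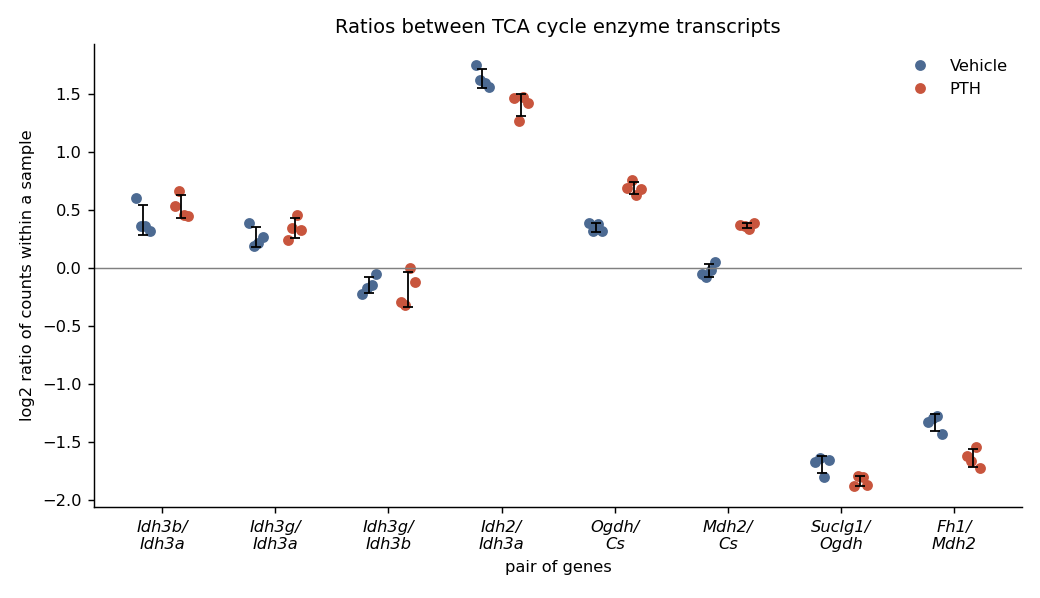
Log2 ratio of the counts of 2 genes within a sample (vertical axis) for 8 pairs of TCA cycle enzymes (horizontal axis), with points for the 4 vehicle (blue) and 4 PTH (red) samples and bars for 1 SD on either side of the mean. The groups are separate for Idh2/Idh3a, Ogdh/Cs, Mdh2/Cs and Fh1/Mdh2 and overlap for the other 4 pairs.

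Levels were compared between the enzymes as CPM per kilobase of the principal transcript. With vehicle, Mdh2 was highest at 90.6 (84.7 to 97.1), followed by Idh2 at 74.9 (74.3 to 75.7), Cs at 45.8 (43.7 to 47.5), Ogdh at 41.4 (40.5 to 42.0) and Idh3g at 38.1 (36.8 to 40.0). Idh3b and Suclg1 came next, both at 34.8 with overlapping samples, and then Fh1 at 19.9 (18.6 to 20.6) and Idh3a at 17.6 (16.2 to 18.4). The last place of Idh3a set the catalytic subunit of IDH3 below both of its partner subunits on this scale. Apart from Idh3b and Suclg1, no neighbours in this order overlapped between samples. With PTH the means were 104 for Mdh2, 63.7 for Idh2, 46.0 for Ogdh and 40.2 for Cs, so Ogdh stood above Cs in place of below it, and the other 5 kept their places. The order depends on the length used: per kilobase of all annotated exons of a gene, Idh2 was highest with vehicle at 50.5 and Mdh2 followed at 37.1, while Idh3a was again lowest at 8.34. On that scale Ogdh already stood above Cs with vehicle, at 31.3 beside 23.2. The exchange of places between Ogdh and Cs thus belongs to the principal transcript length.

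The other 9 core genes of the cycle, which encode the subunits and enzymes that complete the same reactions, held 5 transcripts that rose and 0 that fell, with a median log2 fold change of 0.18. By the same test 23.3% of all tested genes rose and 22.5% fell. Among the 3855 genes in the members' range of CPM the shares were 35.5% and 22.8%, and the list was not tested as a set. Dlst and Dld encode the E2 and E3 subunits that join the product of Ogdh in the oxoglutarate dehydrogenase complex. Dld, which also serves the pyruvate and branched-chain complexes, rose by 0.41 (SE 0.0657, adjusted p = 3.00e-04), from 67.8 ± 2.50 to 90.2 ± 6.04 CPM with no overlap. Dlst rose by 0.20 (SE 0.0730, adjusted p = 0.0449) with overlapping groups.

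The beta subunits of succinyl-CoA synthetase, Sucla2 (ATP-forming) and Suclg2 (GTP-forming), had log2 fold changes of 0.04 and -0.15 (adjusted p = 0.631 and 0.110), and neither passed the test, like their shared alpha subunit Suclg1. Of the 4 subunits of succinate dehydrogenase, which is also complex II of the respiratory chain, the iron-sulfur subunit Sdhb and the membrane anchor Sdhd rose. Sdhb was at 71.6, 71.6, 71.4 and 68.4 CPM with PTH and at 66.3, 59.7, 63.2 and 61.3 CPM with vehicle (adjusted p = 0.0273). Sdhd was at 78.5, 82.1, 88.6 and 80.0 CPM with PTH and at 71.9, 60.0, 56.5 and 57.9 CPM with vehicle (adjusted p = 0.00133), and neither gene overlapped between the groups. The flavoprotein Sdha and the other anchor Sdhc had log2 fold changes of -0.05 and 0.08 (adjusted p = 0.594 and 0.347). Dld and Sdhd passed the test in each of 18 alternative analyses, Sdhb in 10 and Dlst in 6. The number of partner genes that rose was 3 without PTH sample 3 or vehicle sample 1 and 2 without vehicle sample 2 or vehicle sample 3, and without PTH sample 1 Suclg2 fell (adjusted p = 0.0331).

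Genes around the cycle were examined in lists by their role. Of 37 such genes tested, 8 rose and 10 fell, and 3 changed by more than 1 on the log2 scale, against 0 of the 18 genes of the cycle itself. Over all 16736 tested genes 23.3% rose and 22.5% fell, and 2163 changed by 1 or more. No list was tested as a set. At the entry of pyruvate, 3 of the 4 pyruvate dehydrogenase complex genes rose, and the largest rise was that of Pdhx, the E3-binding subunit (log2 fold change 0.72, adjusted p = 5.72e-05), while Pdha1 did not pass the test (0.09, adjusted p = 0.292). Of 11 genes of anaplerosis and glutamate entry, 3 rose and 2 fell. Gls2, a mitochondrial glutaminase, was at 17.1, 18.0, 17.3 and 17.6 CPM with PTH and at 0.714, 1.06, 0.668 and 0.544 CPM with vehicle, a rise of 4.56 on the log2 scale (SE 0.167, adjusted p = 6.65e-10). Got1 and Gpt2, which are named here because of their values and encode the cytosolic aspartate and the mitochondrial alanine aminotransferases, rose by 2.78 (to 119 CPM, with 17.1 to 18.0 CPM in the vehicle samples) and by 2.08 (to 127 CPM, with 29.7 to 30.6 CPM in the vehicle samples). Got2, the mitochondrial partner of Got1 in the malate-aspartate shuttle, did not pass the test, its log2 fold change being -0.14 (adjusted p = 0.138). The largest fall was that of the mitochondrial malic enzyme Me2, at 28.0 ± 2.95 CPM with PTH and 43.7 ± 11.5 CPM with vehicle (log2 fold change -0.64, adjusted p = 0.00520).

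Of 7 mitochondrial carriers of cycle intermediates, glutamate or aspartate, Slc25a22, a glutamate carrier, rose by 0.28 (adjusted p = 0.0120). Another 2, both aspartate-glutamate carriers, fell, the larger fall being that of Slc25a13 (log2 fold change -0.88, adjusted p = 0.00173). The other 4, which carry cycle intermediates, did not pass the test. Of 5 cytosolic counterparts, 0 rose and 2 fell. Idh1, the cytosolic NADP-dependent isocitrate dehydrogenase and thus the counterpart of Idh2, was at 138.4, 109.3, 132.2 and 129.6 CPM with PTH and at 175.2, 184.4, 181.6 and 200.9 CPM with vehicle, and fell by 0.54 on the log2 scale (SE 0.0804, adjusted p = 1.68e-04). Mdh1, the cytosolic counterpart of Mdh2, had a log2 fold change of 0.00 (95% interval -0.15 to 0.16, adjusted p = 0.963). Of 4 assembly factors of succinate dehydrogenase, Sdhaf4 rose by 0.58 (adjusted p = 0.00722) and 0 fell. Of 5 genes of side reactions, such as the disposal of 2-hydroxyglutarate and the GABA shunt, 0 rose and 4 fell, with the largest fall in Aldh5a1, succinic semialdehyde dehydrogenase (log2 fold change -0.62, adjusted p = 0.00148). These small lists were not tested as sets, and 23.3% of all tested genes rose and 22.5% fell.

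**Figure D4:**
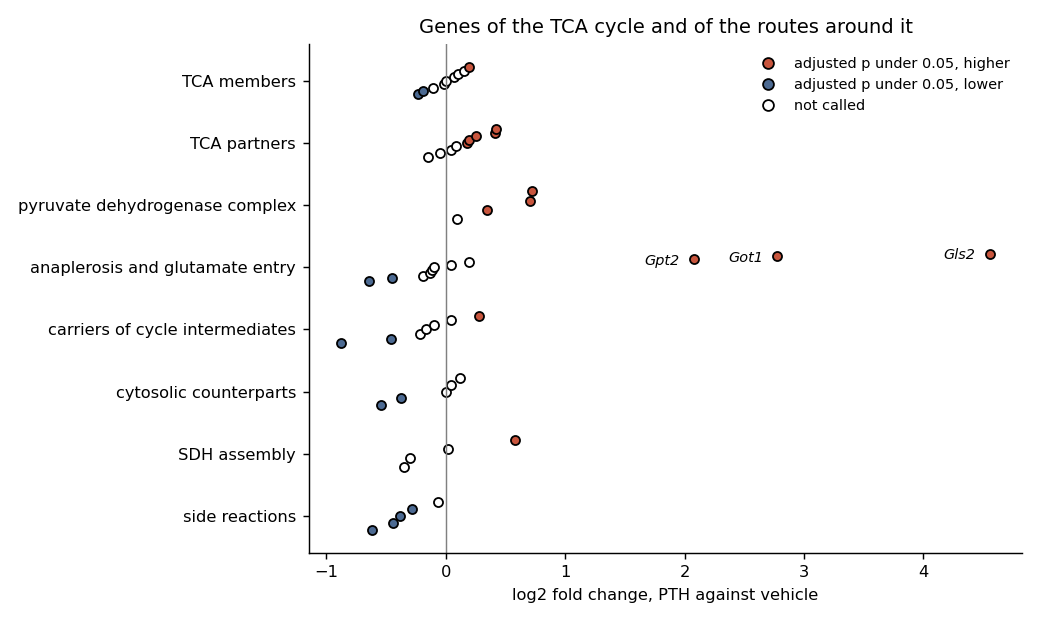
Log2 fold change of PTH against vehicle (horizontal axis) for each tested gene of the TCA cycle lists and of 6 lists around the cycle (rows, with points spread vertically by rank). Filled points had an adjusted p under 0.05; the 9 members and 9 partner genes lie between -0.23 and 0.42, whereas Gpt2, Got1 and Gls2 rose by more than 2.

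The gene whose profile was matched was Idh2, the called member with the largest change. Over the 8 samples, the 5 tested genes with the smallest root mean square difference in centred log2 CPM from Idh2 were Rsu1 (0.0283), Aph1a (0.0286), Mbtps2 (0.0313), Arf3 (0.0333) and Prune (0.0343). Cs stood 35th of 16735 genes by this measure (0.0490) and Fh1 stood 641st, while the other 6 members lay further down.

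The windows upstream of the start sites are shown because PTH signals through cyclic AMP and because the cyclic AMP response element, bound by CREB, has a well-known sequence. RefSeq windows of 250 bases before the start of transcription (GRCm38.p6) were matched for 8 of the 9 members by symbol and were searched on both strands. The full element TGACGTCA was found in the windows of 2 members, Ogdh and Mdh2, and in 1.55% of 32817 windows of all genes. In Ogdh it lay in 3 of 6 windows for alternative starts, which overlap and hold the same site. A member is counted if any of its windows has a match, whereas the shares are per window. For this and the other sequences searched, the members and the shares are thus in unlike units. A share per gene was not computed. The shorter form TGACG, which the full element contains, was found in 4 members (Idh3b, Idh3g, Ogdh and Mdh2) and in 17.7% of all windows. The sites with their surrounding bases are given first, then the window of Ogdh and those of the members that fell, Cs and the part of the Idh2 window that lies outside the annotated gene, with matches in capitals. The printed Ogdh site with its surrounding bases is at chr11:6291535-6291564 on the plus strand, and its element begins 51 bases before the first RefSeq start. That of Mdh2 is at chr5:135778511-135778540 on the plus strand. Its element begins 127 bases before the RefSeq start and lies inside the gene as GENCODE M21 draws it. The windows are chr11:6291347-6291596 (Ogdh, plus strand), chr10:128337477-128337726 (Cs, plus strand) and chr7:80115393-80115600 (Idh2, minus strand).
Ogdh site: acccaattctgTGACGTCAcgtcacgccca
Mdh2 site: ggagagaatcgTGACGTCAggcctcgctcg
Ogdh window: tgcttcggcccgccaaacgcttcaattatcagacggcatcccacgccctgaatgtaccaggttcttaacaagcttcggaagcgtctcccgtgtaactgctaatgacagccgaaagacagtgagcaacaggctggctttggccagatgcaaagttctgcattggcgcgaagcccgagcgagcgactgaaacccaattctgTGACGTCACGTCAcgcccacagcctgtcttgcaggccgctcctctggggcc
Cs window: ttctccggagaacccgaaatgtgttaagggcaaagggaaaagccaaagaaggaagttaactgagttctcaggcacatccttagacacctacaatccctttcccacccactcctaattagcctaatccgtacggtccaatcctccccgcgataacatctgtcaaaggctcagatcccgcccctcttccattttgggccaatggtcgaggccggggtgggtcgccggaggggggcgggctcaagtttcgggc
Idh2 window: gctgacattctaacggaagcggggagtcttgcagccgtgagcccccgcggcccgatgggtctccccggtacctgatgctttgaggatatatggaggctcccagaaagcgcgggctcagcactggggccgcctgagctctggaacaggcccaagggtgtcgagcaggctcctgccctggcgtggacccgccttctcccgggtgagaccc
In Ogdh the full element runs on into a further CGTCA, the short form read from the other strand. The ETS-family letters CCGGAAG were found in 1 member, Idh3g, and in 6.90% of all windows, the letters GCGCATGCG of NRF1 in 1 member, Ogdh, and in 1.44%, and the letters TNAAGGTCA of estrogen-related receptors in 0 members and in 1.14%. The window of Ogdh was 57.2% G and C, that of Cs 55.2%, that of Idh2 67.2% and that of Mdh2 63.2%, beside a median of 52.4% over all windows. A match is a description of these letters, and binding was not measured here.

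In the GRCm38 build (GENCODE M21), Cs spans chr10:128337734-128362479 on the plus strand and its principal transcript has 11 exons. Idh2 spans chr7:80094846-80115392 on the minus strand with 11 exons, Ogdh spans chr11:6291633-6356642 on the plus strand with 23 exons, and Mdh2 spans chr5:135778480-135790398 on the plus strand with 9 exons. Idh3a is on chromosome 9, Idh3b on 2, Idh3g on X, Suclg1 on 6 and Fh1 on 1. The positions show that the 9 genes lie on 9 different chromosomes. No transcript of another gene shared 150 bases at 95% identity or more with a protein-coding transcript of a member. Gene spans, introns included, were compared separately by position. The span of Idh2 shares 1831 bases with that of Gm45203, an unconfirmed transcript on the same strand. That of Cs shares 135 bases with the span of the small nucleolar RNA gene Gm23182, which had 0 counts.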

How the data were processed

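RNA of 4 PTH-treated and 4 vehicle-treated osteoblast cultures was sequenced from poly(A)-enriched libraries as read pairs. The authors used HISAT2 (GRCm38), SAMtools and StringTie2 for alignment, sorting and transcript assembly. The deposited table holds counts that the companion script of StringTie2 estimates from transcript coverage, without scaling between samples. Its read length, strand setting and annotation version are not given in the sources used here. If a read length shorter than that of the reads was set, printed totals and counts would be too high by one factor in each sample, and halved counts were tried for this reason.

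Groups were read from the sample titles. Counts were compared in R 4.3.3 with edgeR 4.0.16, using TMM normalization, filterByExpr (minimum count 10, minimum total 15) and the quasi-likelihood test, with Benjamini-Hochberg adjustment and a threshold of 0.05. Of 47706 genes, 16736 were tested. The precision of each value is given by its SD over 4 samples, and the smallest library held 33605610 counts. Ratios used a pseudocount of 0.5 and exact permutation tests in SciPy 1.17.1. Alternatives were DESeq2 1.42.0, other normalizations and filters, halved, summed or thinned counts, a test against a 1.2-fold change, a transcript length offset, the replicate number as a block, and each sample left out. Both count tests were run on simulated counts, in which 200 of 16736 genes had been changed. With edgeR, 109 of these 200 were found, and 11 unchanged genes were called as well. With DESeq2, 121 were found, but 29 unchanged genes were called. Of the 50 genes given the smallest change, 1.25-fold, edgeR found 4 and DESeq2 found 9. The main analysis called 7669 genes, many more than were changed in the simulation, so these rates may not hold for the members. Positions came from GENCODE M21, similar transcripts from blastn 2.17.0 and promoters from RefSeq.

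The members and lists were chosen with earlier results of these data known. All members and 8 of their 9 partners in the cycle are named (the other is not reported here), as are the called gene with the largest rise and that with the largest fall of each other list, Tnfsf11 as a check, and the 5 genes most like Idh2. Genes named for contrast (Got2, Mdh1, Pdha1 and Ogdhl), for an overlap with a member (Nop56, Kmo, Gm45203 and Gm23182) or for their values (Got1 and Gpt2) fall outside this rule. Acod1 had no row in the table. All 8 samples entered the comparison.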

Additional observations from a re-analysis of the deposited data

Results flagged for a closer look

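In 3 of 36 groups of 4 samples examined, 1 sample stood apart by Dixon's criterion, which chance meets in about 1 of 20 groups. Idh3b was at 59.2 CPM in vehicle sample 1, above the 55.2 to 55.4 CPM of the other vehicle samples. Dld was at 81.2 CPM in PTH sample 2, the smallest library, below the 92.5 to 94.4 CPM of the other PTH samples. Sdhb was at 68.4 CPM in PTH sample 4, below the 71.4 to 71.6 CPM of the other PTH samples.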

How the results depend on the processing

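Of the 9 members, 1 rose and 2 fell in the main analysis. The number that rose was 0 with DESeq2, without a filter on low counts, with the replicate block, with a test against a fold change of 1.2 and without the 10 most abundant genes, 2 with halved counts, and 0 to 2 when single samples were left out. The number that fell was 1 with DESeq2's size factors and with the replicate block, 0 with the test against a fold change of 1.2 and with the transcript length offset, and 0 to 2 when single samples were left out. Of the 9 partner genes, 5 rose in the main analysis, 2 without a filter, 3 with the replicate block, 2 with the test against a fold change of 1.2, and 2 to 5 when single samples were left out, while 0 to 1 fell. The numbers for the other lists stayed between 6 and 8 that rose and between 7 and 11 that fell. The sign of changes near 0 turned for Idh3a (log2 fold change 0.057 with the length offset, -0.057 to 0.018 without single samples), Suclg1 (-0.030 without a filter, -0.0058 without the 10 most abundant genes, -0.012 with the length offset, -0.025 to 0.021 without single samples), Sucla2 (-0.010 to 0.092 without single samples) and Sdha (0.032 with the length offset). The test against a fold change of 1.2 asks for a larger change by construction, and the cause of the other shifts was not tested.

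Same-numbered samples of the groups did not deviate together (correlations of -0.0409 to 0.0274 over 4 pairs, other pairs -0.0676 to 0.0583), so no pairing by number was seen. These correlations cannot exclude that same-numbered cultures share an origin, which the labels do not give. With the replicate block the adjusted p was 0.0828 for Cs, 0.0793 for Mdh2 and 0.0395 for Idh2, and 7003 genes were called in place of 7669. For the log2 ratios between members the block cannot move the difference, which is the mean over 4 pairs either way, and a sign-flip test over 4 pairs cannot give a p below 0.125, so it does not bear on their stability. Depth kept no member from being tested, with 1332 to 10502 counts per member and sample.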
